A study of Homo sapiens with 14 samples.

Results

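The genes of the cytoplasmic ribosomal proteins were examined for C-to-U edits left by an RBFOX2-directed deaminase in methanol-fixed human HEK293T cells, an embryonic kidney line that the labels also write HEK293XT. The members were the protein-coding Gencode genes on hg38 named RPL or RPS with a number, together with RPLP0, RPLP1, RPLP2 and RPSA, and without the RPS6 kinases. This gave 91 of 20046 protein-coding genes, and 87 of the 91 held at least 1 edit site in at least 1 of 14 libraries. The rule used gene names and no measured value. It also takes 3 readthrough genes, annotated transcripts that join a ribosomal protein gene to its neighbour (RPS10-NUDT3, RPL36A-HNRNPH2 and RPL17-C18orf32), the RPS19 binding protein gene RPS19BP1 and paralogs such as RPL7L1.

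In the RBFOX2 libraries the fixed cells received a rabbit antibody against RBFOX2 and then a fusion of the cytidine deaminase APOBEC1 and a nanobody that binds the antibody. The Enzyme-only libraries received the fusion without the antibody, and the Buffer-only libraries received neither. All groups were the same line, fixed in the same way, and no genotype was changed. At each input, 1 ng or 100 pg of total RNA, there were 3 RBFOX2 libraries, 3 Buffer-only libraries and 1 Enzyme-only library. The replicates were separate slides of cells and are called technical in the study, so p-values measure the spread between these libraries only, and the Enzyme-only condition is a single library at each input.

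Ribosomal proteins assemble with ribosomal RNA in the nucleolus into the small (RPS) and large (RPL) subunits. Their genes are short and compact, their mRNAs are among the most abundant of a growing cell and begin with a pyrimidine tract that ties their translation to growth signals, and many of their introns carry small nucleolar RNAs. RBFOX2 is a splicing regulator that binds UGCAUG in pre-mRNA, mostly in introns. An edit site is a C with reads that show T, and its edit fraction is the share of the covering reads that do so. Sites per gene depend on how much of the RNA was present and sequenced as well as on editing, and in bulk RNA more RNA per cell and more editing per molecule cannot be told apart from site numbers.

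The 14 libraries held 394915 edit sites at 363599 positions, and 18650 to 42589 sites per library. Of these, 1061 sites at 995 positions lay in members on the strand of the gene. No library pair shared more than 2.85% of its positions, so no library was a copy of another. The lowest edit fraction of any site was 1.00%, and no site with 1 edited read was covered by more than 69 reads. A deeply covered base therefore needed several edited reads to be listed, and 0 of the 157 member sites covered by more than 100 reads rested on 1 edited read, against 565 of all 1061. The line's own markers were present, with 136 sites in 5 of 6 genes such as NEFM and KRT8. Markers of blood, liver and muscle held 0 sites, and those of fibroblasts 2 sites in 1 gene.

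More edit sites lay in ribosomal protein genes in the RBFOX2 libraries than in the Buffer-only libraries at both inputs, and the members' part of all sites differed little between the groups. At 1 ng the RBFOX2 libraries held 116, 109 and 145 member sites and the Buffer-only libraries 36, 38 and 55. The groups did not overlap. The means were 123.3 ± 19.1 and 43.0 ± 10.4 (SD, n = 3 each), a ratio of 2.87, where all sites on the strand of a gene gave a ratio of 2.64 and those of protein-coding genes 2.80. The RBFOX2 libraries at 100 pg held 65, 79 and 107 member sites and the Buffer-only libraries 47, 43 and 55, again without overlap. The means were 83.7 ± 21.4 and 48.3 ± 6.11 (SD, n = 3 each), a ratio of 1.73 against 1.63 over all genes. The single Enzyme-only libraries held 110 member sites at 1 ng and 56 at 100 pg, within the RBFOX2 range at 1 ng and just above the Buffer-only range at 100 pg.

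Among all sites on a gene's strand, members took 0.345% to 0.454% in the RBFOX2 libraries at 1 ng and 0.310% to 0.450% in the Buffer-only libraries. The ranges at 100 pg were 0.386% to 0.626% and 0.403% to 0.565%. Both pairs of ranges overlap. The Enzyme-only shares were 0.404% at 1 ng (95% Wilson interval 0.336% to 0.487%) and 0.374% at 100 pg (0.288% to 0.485%), and such intervals cover counting error only. By edited reads in place of sites, members took 0.522% to 0.583% in RBFOX2 libraries at 1 ng and 1.00% to 1.07% in Buffer-only libraries. A single RPS23 position, described later, gave 167 of the 221, 189 of the 255 and 179 of the 271 edited member reads of the Buffer-only libraries. In the RBFOX2 libraries it gave 111 of 316, 164 of 352 and 154 of 380. The shares of edited reads without this position are not given, so the higher Buffer-only shares are not read as a trait of the members. Sites on the opposite strand of the members numbered 47 to 59 in RBFOX2 and 43 to 52 in Buffer-only libraries at 1 ng. The paper names the NEBNext Single Cell/Low Input kit for these inputs and does not say that it preserves strand. Reads of overlapping antisense genes may therefore be among the sites. Likewise, reads of the members themselves may be among the opposite-strand sites and missing from the counts on the gene's strand.

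**Figure D1:**
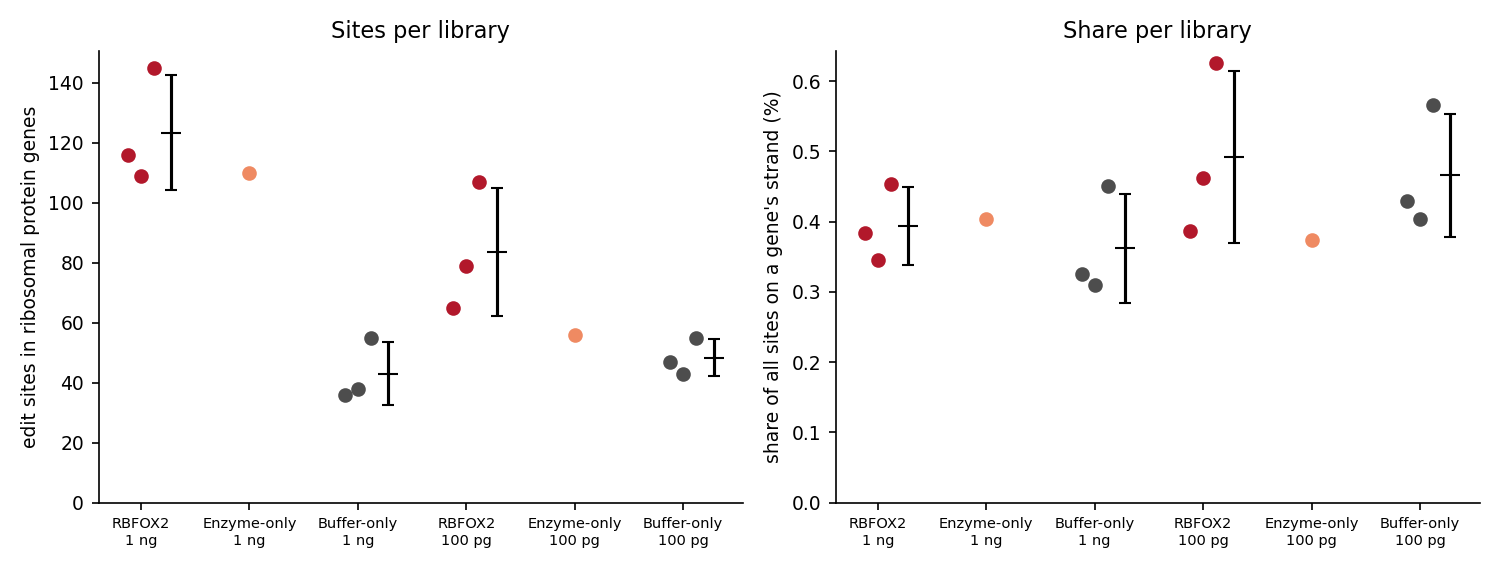
Each point is 1 library, with the number of edit sites in ribosomal protein genes (left axis) and their share, in percent, of all sites on a gene's strand (right panel), and the bars give mean ± SD of 3 libraries. The site numbers of RBFOX2 (109 to 145) lie above those of Buffer-only (36 to 55) at 1 ng, while the shares overlap.

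Within the genes, a larger part of the member sites lay in introns and a smaller part in the coding sequence than over protein-coding genes at large, at both inputs. Regions were taken from the canonical transcript of each gene, and the 85 sites found only in the span of a readthrough gene were set apart. Over all libraries 472 sites lay in introns, 241 in 3′UTRs, 93 in coding sequences, 40 in 5′UTRs and 130 within the gene's span but outside its canonical transcript. In the RBFOX2 libraries at 1 ng, 52.0% of the member sites were intronic against 25.7% over protein-coding genes, 27.9% against 44.7% lay in 3′UTRs and 6.01% against 24.1% in coding sequences. The Buffer-only libraries at 1 ng had a like pattern, with 52.5% against 27.8% in introns and 3.28% against 31.4% in coding sequences. The gap was smaller at 100 pg. There 42.2% of the RBFOX2 member sites were intronic against 27.8% over protein-coding genes and 17.4% against 27.9% lay in coding sequences, and for Buffer-only these were 47.1% against 35.2% and 12.5% against 29.4%. These shares are descriptions, since sites of a library share its depth.

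Ribosomal coding sequences are short, so the number of sites was also set against length. The canonical coding sequences of the 88 members other than the readthrough genes sum to 45.5 kb. At 1 ng the RBFOX2 libraries held 7, 6 and 7 sites there and the Buffer-only libraries 2, 1 and 1. In each library of both groups 1 of these sites was at the RPS23 position. Per megabase and library this was 147 for RBFOX2 members against 203 over protein-coding genes, and 29.3 against 94.1 for Buffer-only. The order turned at 100 pg, with 293 sites per megabase and library in members against 124 over protein-coding genes for RBFOX2, and 125 against 77.3 for Buffer-only. The RBFOX2 libraries at 100 pg held 8, 12 and 20 coding sites and the Buffer-only libraries 7, 3 and 7. These groups did not overlap, and the third RBFOX2 library held the highest number. Per megabase of all canonical exons, members lay above protein-coding genes at 1 ng, with 330 against 280 for RBFOX2 and 102 against 92.9 for Buffer-only. At 100 pg these values were 300 against 141 and 138 against 71.9. Per megabase of gene span they were 111 against 21.1 for RBFOX2 and 40.6 against 7.52 for Buffer-only at 1 ng.

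Coverage at the sites also differed by region. Over all 14 libraries, median coverage of member sites was 452 reads in coding sequences, 79.5 in 5′UTRs, 37 in 3′UTRs and 21 in introns. The median edit fractions were 1.96%, 2.31%, 4.35% and 7.0%. Over protein-coding genes the median coverage was 36, 31, 33 and 11 reads. Coding sites of members rested on a median of 7 edited reads and intronic sites on 1. These pooled coding sites include the RPS23 position, described later, in all 14 libraries. In RBFOX2 libraries the member coding sites had a median coverage of 105 reads, with 2 edited, at 1 ng and 510.5 reads, with 10 edited, at 100 pg. In Buffer-only libraries the median coverage was 566.5 reads over 4 sites at 1 ng and 264 over 17 sites at 100 pg. The files give coverage only at called sites, so the coverage of the unedited coding bases, and its part in the low coding share, was not tested. Of the 91 members, 54 had no site in their canonical coding sequence, and 26 of the 87 with sites had none in any canonical exon.

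**Figure D2:**
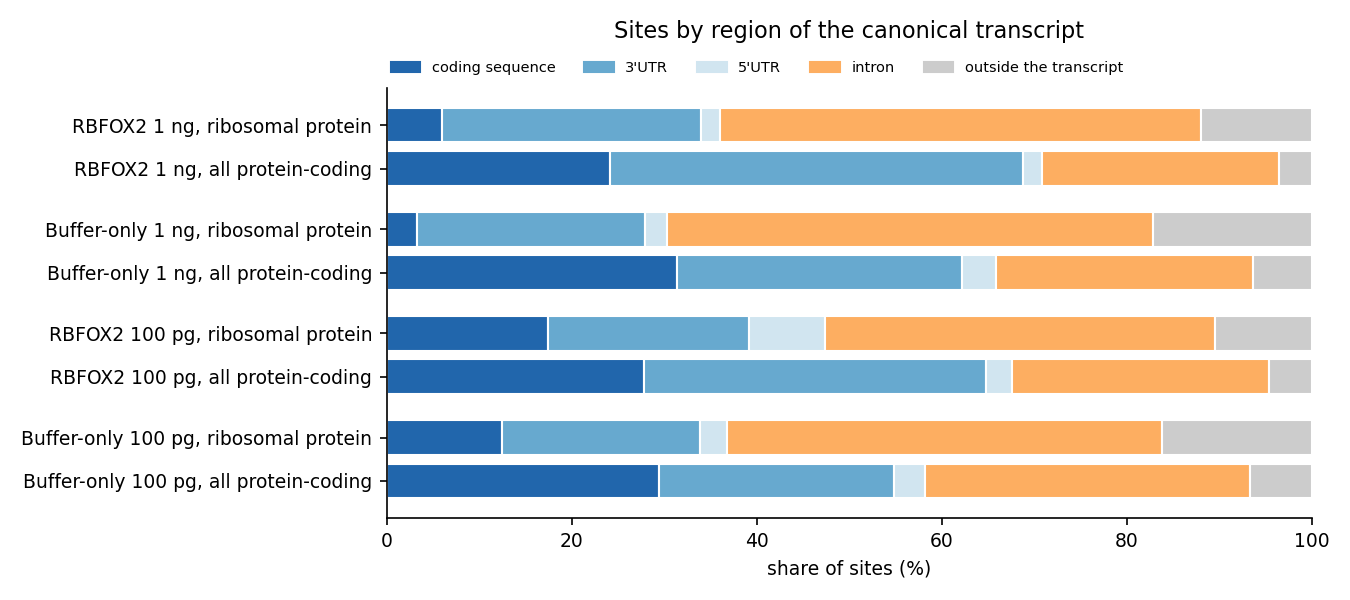
Stacked bars give the share of edit sites (percent, horizontal axis) by region of the canonical transcript for ribosomal protein genes without the readthrough genes and for all protein-coding genes, pooled over 3 libraries per group. Introns take 52.0% and coding sequences 6.01% of the ribosomal protein sites in RBFOX2 libraries at 1 ng, against 25.7% and 24.1% over protein-coding genes.

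Sites were spread thinly over the members. The median member had 7 sites over all 14 libraries, 29 members had 1 to 5 sites, and 31 members had sites in more than 7 libraries. At 1 ng the summed RBFOX2 sites were above the summed Buffer-only sites in 56 members, below in 11 and equal in 24. At 100 pg these numbers were 52, 18 and 21. The sums were not scaled, so the larger number of all sites in RBFOX2 libraries enters them. The equal members include those without a site at that input, and the same split over all genes is not given. Without scaling for the larger number of sites in RBFOX2 libraries, the lowest RBFOX2 library lay above the highest Buffer-only library at 1 ng in 7 of the 79 members with a site there, against 16.5% of all genes with a site. These were RPS6, RPS24, RPL22, RPL31, RPL15, RPS10-NUDT3 and RPL17-C18orf32. The reverse held for 1 member, RPS14, against 0.396% of all genes. At 100 pg 1 of 83 members, RPL5, had all RBFOX2 libraries above all Buffer-only libraries (4.79% of all genes), and RPS27A, which encodes a fusion of ubiquitin and a small-subunit protein, had the reverse (0.65% of all genes). RPS14, a protein of the small-subunit platform, had 1 site in each Buffer-only library and 0 in each RBFOX2 library at 1 ng, and RPS27A had 0 sites against 1, 1 and 2 at 100 pg, so these separations rest on very few sites.

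Tests on the number of sites per gene used edgeR's quasi-likelihood test over all genes with at least 3 sites in at least 3 libraries and at least 5 sites in all. At 1 ng 53 of 2992 genes tested (1.77%) passed an adjusted p of 0.05, 46 with more and 7 with fewer sites in RBFOX2 libraries relative to the library's sites. With any 1 library left out, 0 to 7 genes were called. Of the 91 members 9 reached the filter, and 0 passed, where 507 of all genes and 1 member had an unadjusted p under 0.05 and DESeq2 called 1 gene and 0 members. A gene can reach this filter through the RBFOX2 libraries alone, where sites are more numerous. An adjusted p above 0.05 does not show that site numbers were alike.

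RPS6, the small-subunit protein phosphorylated by the S6 kinases, showed the largest estimate among the 9. It had 7, 6 and 5 sites in the RBFOX2 libraries at 1 ng, 0, 0 and 1 in the Buffer-only libraries and 2 in the Enzyme-only library. The groups did not overlap, with means of 6 ± 1 and 0.333 ± 0.577 sites (SD, n = 3 each), not scaled for the larger number of sites in RBFOX2 libraries. RPS6, like RPS24 and RPL22 below, reached the filter through its RBFOX2 libraries alone, which favours a high estimate. The log2 fold change of sites relative to all sites was 2.59 (SE 1.09, edgeR adjusted p = 0.198). All 25 RPS6 sites of the series lay in introns of its canonical transcript, some of them in exons of other transcripts, and 18 of the 25 followed A or U. RPS6 held 1, 1 and 0 sites in the RBFOX2 libraries at 100 pg, 0 in each Buffer-only library and 2 in the Enzyme-only library. Between the RBFOX2 libraries of the 2 inputs its log2 fold change was 2.19 (SE 0.87, edgeR adjusted p = 0.496).

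RPS24, a small-subunit protein whose mutation causes Diamond-Blackfan anaemia and whose last exons are spliced in alternative ways, had 5, 3 and 7 sites in the RBFOX2 libraries at 1 ng, 1, 0 and 1 in the Buffer-only libraries and 2 in the Enzyme-only library. The log2 fold change was 1.47 (SE 0.95, edgeR adjusted p = 0.440). At 100 pg it had 0, 0 and 4 RBFOX2 sites and 2, 0 and 1 Buffer-only sites, which overlap. Of its 26 sites 25 were intronic and 8 lay within 50 nt of UGCAUG, the most of any member, 7 of them in RBFOX2 libraries and 1 in a Buffer-only library. The stretch shown here lies at chr10:78040525-78040554 (hg38, plus strand), in an intron of the canonical transcript and a noncoding exon of another, and carries the motif and 2 edited positions close to it. Capitals mark UGCAUG and the edited C bases.
RPS24: uugUGCAUGaguguuaCuaCuuuuggaauu
The first of these C bases, chr10:78040541, lies 13 nt after the start of the motif. It was edited in 2 of 17 reads in RBFOX2 replicate 1 at 1 ng and in 10 of 96 reads (10.4%, 95% Wilson interval 5.76% to 18.1%) in RBFOX2 replicate 3 at 100 pg. The second, 16 nt after the motif start, was edited in 10 of 93 reads in the same 100 pg library. Farther out, 32 nt after the motif start, 21 of 93 reads (22.6%, 15.3% to 32.1%) were edited in that library, and 30 nt before it 2 of 31 reads were edited in RBFOX2 replicate 2 at 1 ng. No Buffer-only library had a site within 50 nt of this motif, and the nearest Buffer-only site, 68 nt before it, had 2 of 44 reads. The 100 pg reads are those of a single library, and the 3 positions may lie on the same molecules.

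RPL31, a large-subunit protein near the exit of the peptide tunnel, had the most sites of any member other than RPS10-NUDT3, with 6, 12 and 13 in the RBFOX2 libraries at 1 ng, 0, 3 and 5 in the Buffer-only libraries and 3 in the Enzyme-only library. The lowest RBFOX2 library lay just above the highest Buffer-only library. Its log2 fold change was 0.60 (SE 0.62, edgeR adjusted p = 0.664), and it was -0.0010 when Buffer-only replicate 1 was left out. Of the 66 RPL31 sites of the series 44 lay outside the canonical transcript, 42 of them downstream in longer transcripts of the gene and 2 upstream. At 100 pg the order was not kept, with 3, 4 and 3 RBFOX2 sites against 6, 2 and 4 Buffer-only sites and a log2 fold change of -0.90 (SE 0.67, edgeR adjusted p = 0.612).

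RPL22, an RNA-binding protein of the large subunit, had 3, 4 and 4 sites in the RBFOX2 libraries at 1 ng, 1, 0 and 0 in the Buffer-only libraries and 3 in the Enzyme-only library. Its log2 fold change was 1.91 (SE 1.11, edgeR adjusted p = 0.380), and 19 of its 24 sites over all libraries lay in the 3′UTR. The Enzyme-only library lay at the lower end of the RBFOX2 values. At 100 pg RPL22 had 0, 2 and 2 RBFOX2 sites against 3, 0 and 2 Buffer-only sites.

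RPL15, a core protein of the large subunit with a long 3′UTR, did not reach the filter at 1 ng, with 4, 3 and 2 RBFOX2 sites against 1 in each Buffer-only library. The third RBFOX2 library at 100 pg held 7 sites and each of the others 1. RPL5, which carries 5S ribosomal RNA and, with RPL11, restrains MDM2, had 3, 2 and 4 RBFOX2 sites against 0, 2 and 0 Buffer-only sites at 1 ng, and 4, 3 and 2 against 1 in each Buffer-only library at 100 pg. Of its 28 sites 24 were intronic. Within a short stretch of an RPL5 intron, the second RBFOX2 library at 100 pg had 13 of 23 and 14 of 25 edited reads at chr1:92835280 and chr1:92835282, and the first had 4 of 9 and 2 of 5 at chr1:92835290 and chr1:92835306. No other library had a site at these 4 positions.

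Other members with many sites overlapped between the groups. RPL37, of the large subunit, had 6, 3 and 8 RBFOX2 sites at 1 ng and 0, 0 and 5 Buffer-only sites, with 38 of its 41 sites in a long 3′UTR and a log2 fold change of 0.41 (SE 0.83, edgeR adjusted p = 0.849), which was -0.18 without Buffer-only replicate 1, -0.20 without replicate 2 and 5.14 without replicate 3, the only one of them with RPL37 sites. RPL26, of the large subunit, had 2, 3 and 6 against 2, 1 and 0, and all 29 of its sites were in introns of the canonical transcript. RPS23, which helps form the decoding centre, had 6, 2 and 7 against 2, 2 and 3, with a log2 fold change of -0.23 (SE 0.73, edgeR adjusted p = 0.913). RPL7L1, a paralog of RPL7 that acts in ribosome assembly, had 10, 9 and 5 against 1, 1 and 5 and 8 in the Enzyme-only library, and 13 of its 51 sites had the changed base in a copy of the surrounding 31 bases elsewhere in the genome. Its log2 fold change was 0.43 (SE 0.67, edgeR adjusted p = 0.798). The values of RPL7L1 and other genes with copies are uncertain, since the reads could come from a copy. Over all members 6.22% of the RBFOX2 and 10.1% of the Buffer-only sites at 1 ng had such a copy. Over protein-coding genes these shares were 2.81% and 4.22%, so the limit also applies to the members' totals.

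The readthrough genes add sites of their neighbours. RPS10-NUDT3 had 14, 6 and 16 RBFOX2 sites at 1 ng, 0, 3 and 3 Buffer-only sites and 11 Enzyme-only sites, with a log2 fold change of 1.22 (SE 0.64, edgeR adjusted p = 0.317). RPS10 itself is a small-subunit protein, and NUDT3 a phosphohydrolase of inositol pyrophosphates. Of the 74 sites 35 lay in the 3′UTR, which is shared with NUDT3, so these reads cannot be told apart from NUDT3 transcripts. RPL36A-HNRNPH2 had 7, 1 and 5 sites against 4, 1 and 2 (log2 fold change -0.43, SE 0.77, edgeR adjusted p = 0.825). Without the sites found only in readthrough spans the members kept 333 RBFOX2 and 122 Buffer-only sites at 1 ng, a ratio of 2.73.

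**Figure D3:**
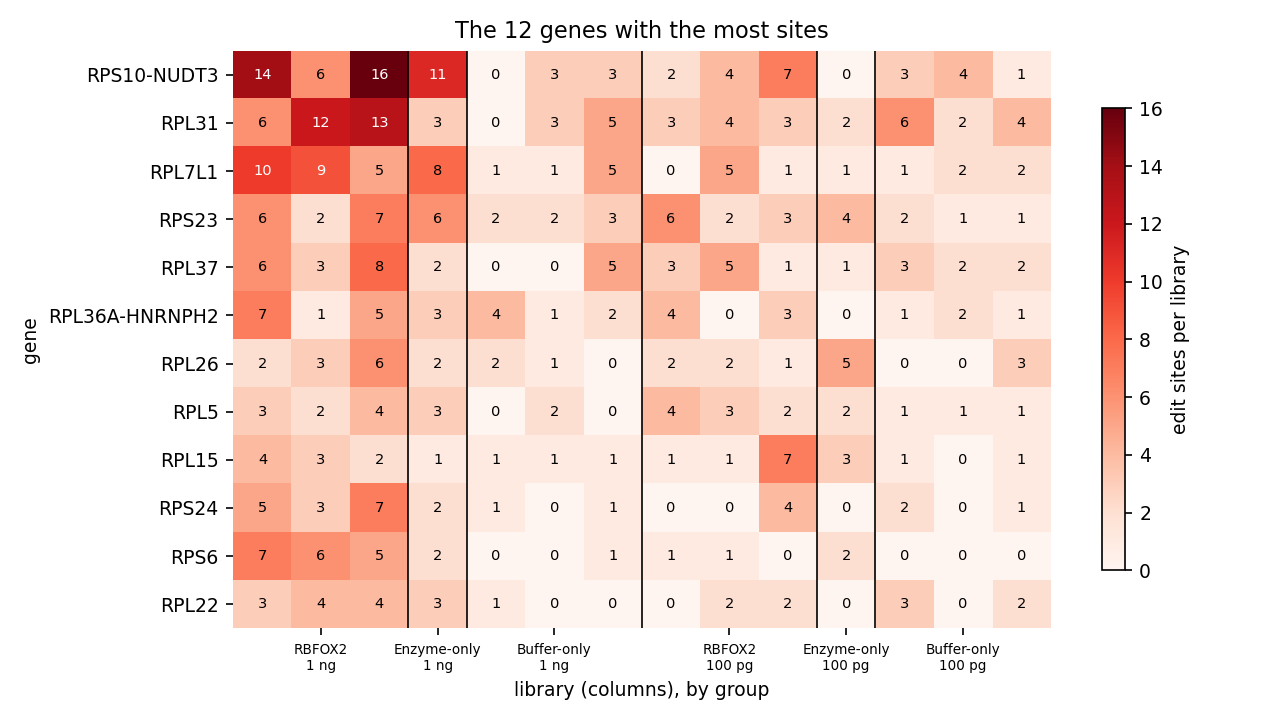
Rows are the 12 ribosomal protein genes with the most edit sites over 14 libraries, columns are libraries by group, and each cell gives the number of sites. RPS6 holds 7, 6 and 5 sites in RBFOX2 libraries at 1 ng and 0, 0 and 1 in Buffer-only libraries, while RPS23 and RPL37 overlap between these groups.

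The acidic stalk, which recruits elongation factors to the ribosome, had site numbers on both sides of the members' median of 7. RPLP0 had 10 sites, RPLP2 5 and RPLP1 1 over all libraries, and 0 of these 16 lay in a coding sequence. RPL3 and RPL4, core proteins of the large subunit, had 13 and 11 sites, 5 of each in the coding sequence. RPS19, the gene most often mutated in Diamond-Blackfan anaemia, had 18 sites, 16 of them intronic, and all 10 sites of RPS2, at the mRNA entry of the small subunit, were intronic. Some members with deeply covered sites were others: the median was 721 reads over the 4 sites of RPL36AL, a paralog of RPL36A, 332 over 13 sites of RPL26L1, a paralog of RPL26, and 268 over 5 sites of RPS19BP1. None of these 3 had more than 1 site over the 3 RBFOX2 libraries at 1 ng.

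Most member positions were edited in a single library. Of the 995 positions 962 (96.7%) were seen in 1 library, against 95.8% over protein-coding genes, 24 in 2 and 9 in 3 or more. The strongest was in the coding sequence of RPS23 at chr5:82277851 (hg38, minus strand), base 2 of an exon, and it was edited in all 14 libraries. The window around it, chr5:82277837-82277865, is printed from the minus strand with the edited C and the base before it in capitals.
RPS23: auuuaauuuuuagGCaagugucguggacu
The edit fraction was 24.6% (95% Wilson interval 20.8% to 28.7%), 31.4% and 31.05% in the RBFOX2 libraries at 1 ng and 31.7%, 30.1% and 29.5% in the Buffer-only libraries, at 452 to 628 reads. At 100 pg it was 38.3%, 35.8% and 28.2% with RBFOX2 and 38.8%, 35.5% and 26.2% with Buffer-only, and the Enzyme-only libraries had 33.6% at 1 ng and 34.7% at 100 pg. RBFOX2 and Buffer-only overlap at both inputs, and the position was edited at this level in libraries that received no enzyme. A second position of this kind lay in the RPS23 3′UTR at chr5:82276066, in 9 libraries that include all 3 Buffer-only libraries at 1 ng, with edit fractions of 1.61% to 11.8%.

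Positions shared among RBFOX2 libraries alone were few and mostly followed A or U. At 1 ng 10 positions were edited in at least 2 RBFOX2 libraries and in no Buffer-only library of either input, and 9 of these 10 follow A or U. Of all member sites of these RBFOX2 libraries 75.4% did so. The same count over all protein-coding genes is not given, so it is not read as a trait of the members. By contrast 0 positions were edited in at least 2 Buffer-only libraries and no RBFOX2 library at 1 ng. At 100 pg chr17:38853729 in RPL23, of the large subunit, was edited in 2 Buffer-only libraries and in no RBFOX2 library. The RBFOX2 libraries also hold more sites in all, whose part in this count was not tested. In all 3 RBFOX2 libraries at 1 ng and no Buffer-only library there were 3 positions, in the 3′UTR of RPL7L1 and, for the other two, in that of NUDT3 within RPS10-NUDT3. Windows of 29 bases on the strand of the gene are shown for 9 of the 10, with the edited C and the base before it in capitals.
RPL7L1 3′UTR, chr6:42887139-42887167 (+): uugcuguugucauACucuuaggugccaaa
NUDT3 3′UTR, chr6:34288452-34288480 (-): ugaagagaggccaACagccuuccccugcc
NUDT3 3′UTR, chr6:34288420-34288448 (-): gauucugaaguguUCcuguuugucuuauc
RPS6 intron, chr9:19378134-19378162 (-): auuucguugaaaaUCugcuugugaaucuu
RPL22 3′UTR, chr1:6185383-6185411 (-): uucuaugcaaauuUCuuugaagcagaauu
RPL23A 3′UTR, chr17:28724274-28724302 (+): ccucacacacccaUCuacuauguccaacc
RPS15A 3′UTR, chr16:18782954-18782982 (-): aaaugccucauggACucuggugcuuccac
RPL31 downstream, chr2:101014444-101014472 (+): ugcccugugagauGCugaccuuugcaaau
RPL31 downstream, chr2:101019218-101019246 (+): ccuugccucuucgACaggcaaguaauaag
None of these 9 windows holds UGCAUG, and the position not shown is the only one of the 10 within 50 nt of the motif. It lies in the 3′UTR of RPL7L1 and is also the only one of them with a copy elsewhere in the genome. The RPL7L1 position had 5 edited of 155 reads over the 3 libraries, and the RPS6 position 3 of 28 reads in replicate 1 and 1 of 44 in replicate 2. RPL23A, the large-subunit protein at which the signal recognition particle docks, had 5 edited of 177 reads, and RPS15A, of the small subunit, 2 of 36. These positions rest on few edited reads each.

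RPL31 gave the contrary case at chr2:101019521, in the 3′UTR of a longer transcript, where C follows G. It was edited in all 3 RBFOX2 libraries at 1 ng and also in 2 of the 3 Buffer-only libraries, and at 100 pg in 1 RBFOX2 and 1 Buffer-only library, with edit fractions of 5.88% to 17.4%. The window at chr2:101019507-101019535 (+) is shown because it lies in a confident RBFOX2 cluster described later.
RPL31: ucguuuucuuaagGCuuuuuuaacugcau
At 1 ng 2 of 20, 2 of 29 and 2 of 34 reads were edited in the RBFOX2 libraries, and 4 of 38 and 3 of 33 in Buffer-only replicates 2 and 3, so the edit fractions overlap.

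The base before the edited C, for which APOBEC1 favours A or U, separated the groups in ribosomal protein genes as elsewhere. At 1 ng 71.6%, 79.8% and 75.2% of member sites followed A or U in the RBFOX2 libraries, and 33.3%, 42.1% and 50.9% in the Buffer-only libraries, without overlap. Over protein-coding genes the pooled shares were 77.6% and 47.6%. In the spans of the members 47.7% of all C bases follow A or U, so the Buffer-only share was near that of the sequence. The Enzyme-only library at 1 ng had 67.3% (95% Wilson interval 58.1% to 75.3%). At 100 pg the RBFOX2 libraries had 58.5%, 53.2% and 58.9% and the Buffer-only libraries 38.3%, 46.5% and 36.4%, again without overlap, against pooled shares of 66.1% and 47.1% over protein-coding genes. The members lay below protein-coding genes in every library of each group except RBFOX2 replicate 2 and Buffer-only replicate 3 at 1 ng.

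**Figure D4:**
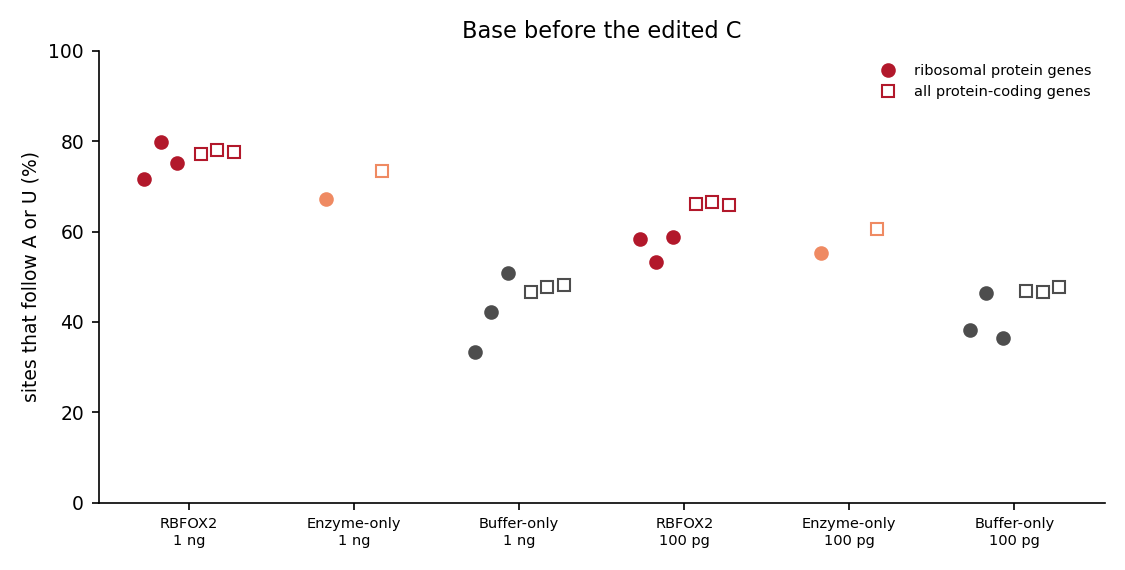
The share of sites whose C follows A or U (percent, vertical axis) is given per library and group, with filled circles for ribosomal protein genes and open squares for all protein-coding genes. RBFOX2 libraries at 1 ng lie between 71.6% and 79.8% in ribosomal protein genes and Buffer-only libraries between 33.3% and 50.9%.

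Few member sites lay near UGCAUG, which was searched on the strand of the gene only. Within 50 nt of the motif there were 4, 6 and 6 sites in the RBFOX2 libraries at 1 ng and 0, 0 and 3 in the Buffer-only libraries. The numbers do not overlap, but the shares of each library's member sites do, at 3.45%, 5.50% and 4.14% for RBFOX2 and 0%, 0% and 5.45% for Buffer-only. The pooled shares were 4.32% and 2.33%, against 6.14% and 2.48% over protein-coding genes and 2.63% of all C bases in member spans. The Enzyme-only library had 3 such sites of 110. At 100 pg the RBFOX2 libraries had 2, 2 and 4 and the Buffer-only libraries 1, 2 and 0, which overlap. The 32 motif-near positions of the series fell in 17 members, and RPS24 and RPS10-NUDT3 held the most, with 7 and 4 sites in RBFOX2 libraries and 1 each in Buffer-only libraries.

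Clusters, which the authors called by merging nearby sites into scored windows, gave the members a larger place by deposited depth than by number, through intronic clusters above all. Members held 883 of the 208672 clusters of the 14 libraries (0.423%), but 394 of the 2383 clusters (16.5%) with a deposited mean depth over 1000 reads. Of these 394 clusters 340 were intronic, and the deposited depth of intronic clusters did not match their coverage, as given next. Outside introns members held 54 clusters over 1000 reads, beside 1224 over protein-coding genes, and 474 clusters of any depth, beside 132216. In each library members made up few clusters, 89 to 104 in RBFOX2 and 32 to 51 in Buffer-only libraries at 1 ng, and 39.0% to 55.6% of the member clusters of each of the 14 libraries were over 1000 reads deep.

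The depth of intronic clusters did not match the coverage of the C bases inside them. For the 409 intronic member clusters the median mean depth was 2805 reads and the median coverage at C bases 18.9 reads, with a median ratio of 136 (interquartile range 46.7 to 313). In coding sequences of members the ratio was 2.10 and over all clusters of all genes 2.11. In 371 of the intronic member clusters (90.7%) the ratio was over 10, against 16.1% of the 59791 intronic clusters of other protein-coding genes, whose median ratio was 3.23. The deepest intronic clusters lay in RPS2, RPS19 and RPS6, for example 8090 reads in RPS2 at chr16:1962404-1962433 in RBFOX2 replicate 1 at 1 ng, where the C bases had a coverage of 52.5 reads. RPS19 had a cluster of 8057 reads with a coverage of 13.6 reads in a Buffer-only library, so such clusters appear with and without enzyme. The highest mean depth of all clusters was 8104 reads, and 11 of the 23 clusters above 8000 reads were in members, while the coverage of single sites reached 42476 reads. The cause of the gap was not tested, and the clusters' edit fractions and scores were not used to rank members.

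**Figure D5:**
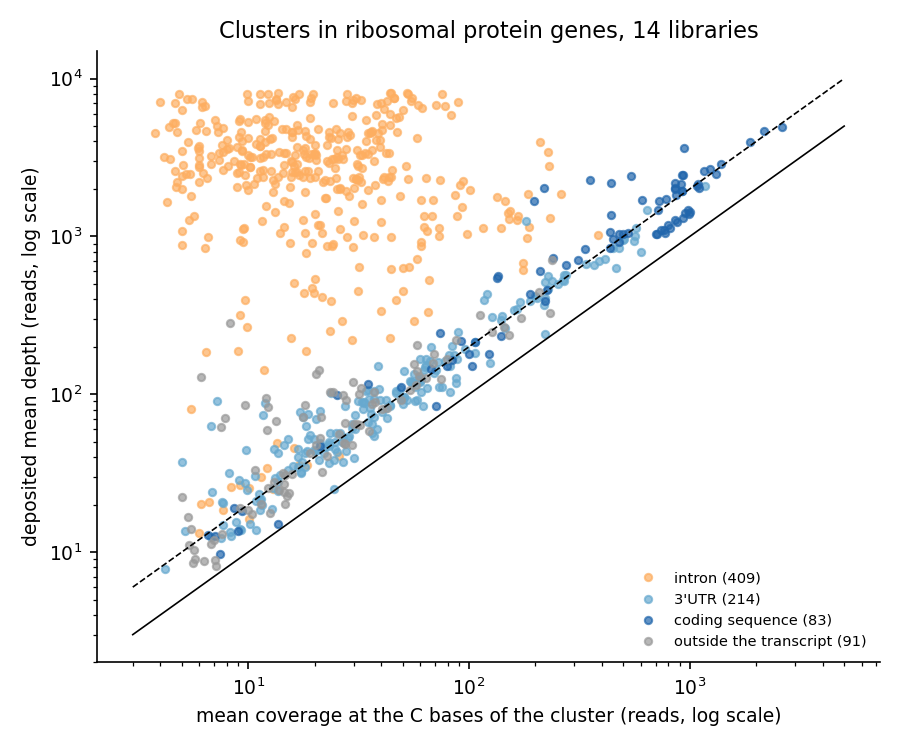
Each point is a cluster in a ribosomal protein gene in 1 of 14 libraries, with mean coverage at its C bases (reads, horizontal log axis) against the deposited mean depth (reads, vertical log axis), coloured by region. The solid line marks equal values and the dashed line a ratio of 2, along which coding and 3′UTR clusters lie, whereas most intronic clusters sit far above with a median ratio of 136.

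The confident lists, which the authors made by intersecting clusters over the 3 replicates, held few clusters in members, though at 1 ng not a lower share than among all clusters. Of the 776 RBFOX2 clusters at 1 ng left after removal of the Buffer-only list, 5 (0.644%) lay in members, and of the 214 at 100 pg 0 did. Among all clusters of the single RBFOX2 libraries, members took 0.360% to 0.424% at 1 ng and 0.388% to 0.604% at 100 pg. The Buffer-only list at 1 ng held 2 of 250 (0.8%). These differences were not tested. The 5 of RBFOX2 at 1 ng were in the 3′UTR of RPL22 (chr1:6185291-6185335), downstream in RPL31 (chr2:101019494-101019538), in the 3′UTR of RPS10-NUDT3 (chr6:34288425-34288454), in an intron of RPS10 (chr6:34423413-34423517) and in the 3′UTR of RPL7L1 (chr6:42887126-42887170). The RPS10-NUDT3 cluster and the RPS10 intron cluster were in all 3 RBFOX2 libraries at 1 ng and in no Buffer-only library. The first was also in the Enzyme-only library at 1 ng. In the RPS10 intron cluster each edited position was called in 1 library only, with 1 or 2 edited reads at a coverage of 26 to 51 reads. Its listed mean coverage was 3370 reads, so it shares the depth mismatch of intronic clusters given above. The RPL31 cluster was also called in 2 Buffer-only libraries at 1 ng, with edit fractions of 1.24% and 1.17% beside 1.35%, 0.917% and 0.667% in the RBFOX2 libraries. The RPL7L1 cluster was also called in 1 Buffer-only library at 1.05% and in the Enzyme-only library at 0.496%. The RPL22 cluster was found in 2 of the 3 RBFOX2 library tables. The RPS23 coding cluster (chr5:82277825-82277869) was in the RBFOX2 and Buffer-only lists of both inputs and was therefore not among those left.

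Between inputs and in the change from Buffer-only to RBFOX2 between inputs, no gene was called. The paper describes 1 ng or 100 pg of each sample's total RNA as the starting material. Libraries of the 2 inputs may therefore share RNA, and the tests between inputs treated them as separate. At 100 pg 0 of 1300 genes (0%) passed edgeR's test, with 162 at an unadjusted p under 0.05 and 0 by DESeq2, and 3 members were tested. These were RPL31, given above, RPL37 (log2 fold change -0.29, SE 0.73, edgeR adjusted p = 0.921) and RPS10-NUDT3 (0.03, SE 0.73, edgeR adjusted p = 0.988). Between the RBFOX2 libraries of the 2 inputs 0 of 3449 genes (0%) passed edgeR's test, 327 at an unadjusted p under 0.05 and 0 by DESeq2, and 12 members were tested. For the difference between inputs of the change, 0 of 4197 genes (0%) passed edgeR's test, 237 at an unadjusted p under 0.05 and 0 by DESeq2, with 13 members tested. The median over all genes of this last difference moved from -0.13 to 0.07 with another scaling (RLE), so its directions are relative to the scaling.

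Related genes outside the rule were counted in the same way, from lists that overlap in part. Mitochondrial ribosomal protein genes, whose products form the ribosome of the organelle, held 1383 sites in 78 of 78 genes, with 485 in RBFOX2 and 183 in Buffer-only libraries at 1 ng. Translation factors and other transcripts that begin with a pyrimidine tract held 559 sites in 19 of 20 genes, 198 against 54 at 1 ng. Ribosome biogenesis factors held 890 sites in 28 of 28 genes, 296 against 140. In none of these lists did edgeR call a gene at an adjusted p of 0.05 in any of the 4 comparisons, and 9, 8 and 17 of their genes were tested at 1 ng. The median log2 fold change of those tested was 0.23 for the mitochondrial, 0.74 for the pyrimidine-tract and -0.32 for the biogenesis list, beside 0.30 over all 2992 genes tested.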

How the data were processed

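The libraries were short-read RNA sequencing of methanol-fixed cells. The authors trimmed adapters (cutadapt), filtered repeat reads, mapped with STAR, listed by the submitters as version 2.4.0, to hg38 and called C-to-U sites with SAILOR, without known variants. Per site the authors deposited read counts (edited and covering), the fraction of edited reads and a score; only scores over 0.5 and fractions under 0.8 were kept. Nearby sites were merged by the authors into FLARE clusters (threshold 0.1), for which they deposited counts, a fraction, a score and the mean depth as a coverage signal. Confident lists hold clusters intersected over 3 replicates per group and input, and 2 further lists hold those of RBFOX2 less those of Buffer-only.

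Sites and clusters were given to every Gencode 44 gene whose span and strand held them (bedtools 2.31.1, Python 3.11.15, numpy 2.4.6, pandas 2.3.3, with matplotlib 3.10.9 for figures), and member sites were totalled once each. Sequences are from the hg38 reference. Counts of sites per gene were tested with edgeR 4.0.16 (R 4.3.3, limma 3.58.1), scaled by TMM, by its quasi-likelihood test on the libraries compared, and p-values were adjusted over all genes tested (Benjamini-Hochberg, 0.05). Genes needed 3 sites in at least 3 libraries and 5 in all. DESeq2 1.42.0, other scalings and filters, edited reads, exonic sites, sites without a copy, 10 or more covering reads and each library left out were alternatives. The edgeR step was tested on simulated data with known changes and recovered few of them. At 1 ng it called 2% of 2-fold and 23% of 4-fold changes, and at 100 pg 0% and 3%. Between the RBFOX2 libraries of the 2 inputs these were 0% and 24%. A gene that was not called may therefore still have changed. Totals over members were not tested. Genes named by rule are members with the most sites, with the most extreme estimates among those tested, with the highest median coverage, or with a confident cluster or a shared position. Others (RPL3, RPL4, RPS2, RPS14, RPS19, RPS27A, RPL17-C18orf32, RPL23A, RPS15A and the stalk genes) were chosen after their values were seen. Members, lists and rules were chosen with earlier results of these data known. A few results are not reported here.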

Additional observations from a re-analysis of the deposited data

Results flagged for a closer look

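The Enzyme-only libraries enter no comparison of site numbers per gene, and their number of sites in ribosomal protein genes lay above the Buffer-only range. At 1 ng the Enzyme-only library held 110 member sites, where the Buffer-only libraries held 36 to 55. At 100 pg it held 56, where they held 43 to 55. As a share of all sites on a gene's strand they did not lie above it, with 0.404% at 1 ng (Buffer-only 0.310% to 0.450%) and 0.374% at 100 pg (Buffer-only 0.403% to 0.565%). On the strand opposite the members, which the report's comparisons do not use, the Enzyme-only library held 55 sites at 1 ng (Buffer-only 43 to 52) and 63 at 100 pg (Buffer-only 35 to 41). The RBFOX2 libraries at 100 pg had a mean of 49.3 opposite-strand sites against the same Buffer-only range of 35 to 41. These differences were not tested.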

How the results depend on the processing

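The excess of member sites in RBFOX2 over Buffer-only libraries kept its direction under every alternative run at both inputs. At 1 ng it was 80.3 sites per library, and 35.7 with a score of at least 0.9, 63.3 with sites in exons of any transcript only and 27.7 with canonical exons only, a choice made after seeing the data, as was leaving out sites of readthrough genes alone (70.3). Leaving out 1 library gave 69.5 to 87.5 at 1 ng and 23.7 to 44.7 at 100 pg, where the main value was 35.3. Such a step could not turn the direction, since the main counts of the groups do not overlap. The excess is not scaled for the larger number of all sites in RBFOX2 libraries, and the members' shares of all sites overlap.

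The number of genes called at 1 ng, 53, was 34 with edgeR's default filter, 101 with at least 1 site, 1 with DESeq2, 170 with edited reads counted, and 0 with exonic sites only or with at least 10 covering reads; leaving out 1 library gave 0 to 7. Without each library the calls numbered 6, 2 and 7 for RBFOX2 replicates 1, 2 and 3, and 4, 0 and 0 for Buffer-only replicates 1, 2 and 3. At 100 pg the 0 calls of edgeR became 1 with at least 1 site, 6 with edited reads, and 0 to 3 when 1 library was left out (3 without RBFOX2 replicate 1 and 2 without RBFOX2 replicate 3). Between inputs they became 4 with the default filter, 2 with at least 1 site and 1 with edited reads, and for the difference of changes 1 with edited reads. The cause of these moves was not tested. No member was among these calls except RPS23 at 1 ng with edited reads counted (1 member, log2 fold change -1.55, edgeR adjusted p = 1.04e-12), where 1 position gave most of its reads.

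Estimates near 0 changed sign. At 1 ng RPS23 (-0.23) was 0.16 with at least 1 site and ranged from -0.38 to 0.26 when 1 library was left out. The same range was -0.0010 to 1.37 for RPL31, -0.20 to 5.14 for RPL37, -0.84 to 0.15 for RPL36A-HNRNPH2. At 100 pg it was -0.49 to 0.17 for RPL37 and -0.44 to 0.50 for RPS10-NUDT3. RPL37 at 100 pg was 0.36 with edited reads. RPS10-NUDT3 at 100 pg was -0.041 with RLE scaling, -0.038 with DESeq2, -0.21 with exonic sites, -0.12 with at least 10 covering reads and -0.0033 with the replicate block. The 5.14 of RPL37 is without Buffer-only replicate 3, the only Buffer-only library at 1 ng with RPL37 sites, so it depends on the prior count and is no bound.

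The replicate numbers are shared by the groups, but nothing in the labels pairs them, and deviations from the group means were not alike in libraries of the same number (correlations from -0.026 to 0.017, against -0.037 to 0.029 for unlike numbers). With the number as a replicate block 61 genes were called at 1 ng, 1 at 100 pg and 0 in the other comparisons, and no member. The depth of unedited bases is not in the files used here, and no site under 1.00% is listed, which limits what can be seen in deeply covered coding sequences.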
